A study of Rattus norvegicus with 5 samples.

Results

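The cytosolic ribosomal proteins and the translation initiation and elongation factors were followed in rat tendon stem/progenitor cells (TSPCs) that had been passaged with or without prim-O-glucosylcimifugin (POG). POG is a chromone glycoside from the root of Saposhnikovia. Members were the probe sets whose annotated gene symbol begins with Rpl or Rps and a digit, Rplp, Eif or Eef, without the S6 kinases. This rule reads symbols only, although these gene families were taken up with earlier results of the data known. These were 101 of 10141 probe sets, each for a different gene: 38 large-subunit proteins, 22 small-subunit proteins, 35 initiation factors or their regulators and 6 elongation factors or their regulators. The POG group held 2 Affymetrix arrays of passage 12 TSPCs, with POG at 20 μmol/L in the medium at each passage from 3 to 12. The study gives a larger number of POG samples for its array data, and any further array was not analysed. The DMSO group held 3 arrays of passage 12 TSPCs that received the solvent dimethyl sulfoxide over the same passages. All cells came from the Achilles tendons of 3-month-old rats and carried no genetic change named in the labels, and serial passage in both groups served as a model of replicative senescence. The question was which mRNAs a long exposure to POG alters in cells near the end of serial culture. The labels call the arrays biological replicates without saying whether they came from separate animals or cultures, so a p-value here reflects variation among 5 arrays and that variation may be technical.

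Each ribosome joins a small subunit, which reads the mRNA, to a large subunit, which forms the peptide bond and carries an acidic stalk where the translation GTPases bind. Initiation factors load the initiator tRNA (eIF2, recharged by eIF2B), hold the small subunit open for mRNA (eIF3) and bring in capped mRNA (the eIF4 group), after which the elongation factors eEF1 and eEF2 deliver aminoacyl-tRNA and move the ribosome along. The mRNAs of ribosomal proteins and of several translation factors begin with a cytosine and a run of pyrimidines, the 5′ terminal oligopyrimidine (TOP) motif, through which mTOR and the RNA-binding protein Larp1 adjust their translation and storage. Ribosomal protein S6, encoded by Rps6, is the classic substrate of the S6 kinases, and its phosphorylated form was a protein readout of mTOR in the study. The arrays measured mRNA only.

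The start sites of the members bear on this shared control, so windows of 30 bases, from 10 before to 20 after the first RefSeq start (rat assembly GRCr8), were searched on the gene's own strand for a run of at least 7 bases that are each C or T. Windows were found for 88 of the 101 members. The sequences below are members the results turn on, printed 5′ to 3′ as DNA, with the longest such run in capitals.
Rpl10a: cttctgCCTTCTTTTCCggttcccgcagcc
Rpl13: cggtgcccgaTCCTTTCCgctcggccgttc
Rplp0: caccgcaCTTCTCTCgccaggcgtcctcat
Rps15: acaccgCTTCCTTTTCCCagcagccgccaa
Eif3m: caccgtgtggtaccgCTCCTTTTCCggtcg
Eif2s3: cagccgagcaTTTTCCTTTTCTCTCTgagc
Eef1b2: ggccggtcccggCCCTTTTTCTCCCTCagc
Rpl22l1: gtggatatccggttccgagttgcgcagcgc
Rps6: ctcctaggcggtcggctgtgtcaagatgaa
Eif4e: ttgtgcgatcagatcgatctaagatggcga
Eif2ak3: agcagacacacggaaccctcgctcaatggg
These windows lie at chr20:6390523-6390552 (plus strand, Rpl10a), chr19:68062504-68062533 (plus, Rpl13), chr12:46718371-46718400 (minus, Rplp0), chr7:10068096-10068125 (minus, Rps15), chr3:111897174-111897203 (minus, Eif3m), chrX:62933680-62933709 (minus, Eif2s3) and chr9:72074081-72074110 (plus, Eef1b2). Those without a run lie at chr2:113683186-113683215 (plus, Rpl22l1), chr5:106420521-106420550 (minus, Rps6), chr2:229740743-229740772 (plus, Eif4e) and chr4:104363862-104363891 (plus, Eif2ak3). Each window spans the annotated start, so that its last 20 bases are the first transcribed bases if transcription begins there. The start used in TSPCs was not measured.

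A run was present in 18 of 30 large-subunit windows (60.0%) and 15 of 20 small-subunit windows (75.0%). It was present in 6 of 33 initiation windows (18.2%), 2 of 5 elongation windows (40.0%) and 4630 of the 27457 windows of all genes in the table (16.9%). A stricter search, for C at the annotated start followed by 4 bases that are each C or T, matched 18 of 50 ribosomal protein windows (36.0%), 0 of 38 factor windows and 722 of all windows (2.63%). A match describes these letters in the annotated window and says nothing of use in these cells, and both search definitions were set after the sequences had been seen.

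**Figure D1:**
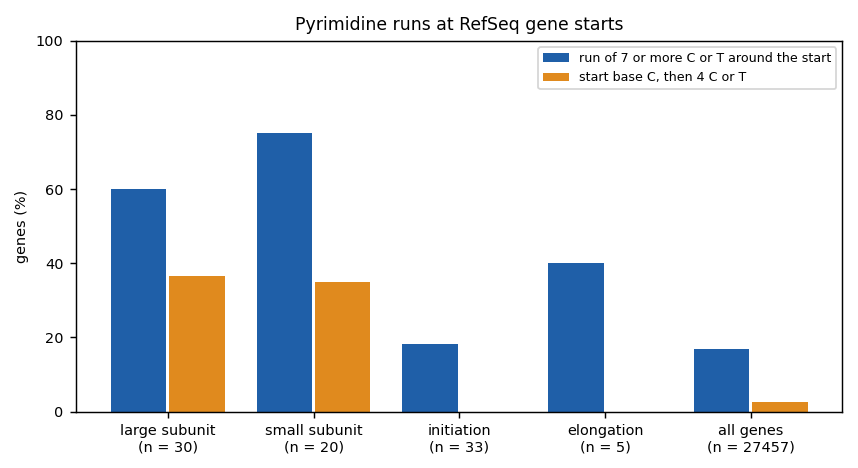
Share of genes (%, y axis) whose 30-base window around the annotated start holds a run of at least 7 bases that are each C or T, or a C at the start followed by 4 such bases, for each class of member and for all genes of the RefSeq table. Blue bars reach 60.0% and 75.0% for the large and small subunit, against 16.9% for all genes.

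Ribosomal protein mRNAs of both subunits were higher in POG-treated than in DMSO-treated TSPCs, most of them by between 1.5-fold and 2-fold. Of the 60 ribosomal protein probe sets, 52 (86.7%) were higher in POG arrays and 0 were lower at a limma adjusted p under 0.05, whereas 26.7% of all probe sets were called higher and 19.6% lower. The large subunit gave 33 of 38 higher and the small subunit 19 of 22. The remaining 8 did not pass the test. Without adjustment, limma gave 56 of the 60 higher and 0 lower at p under 0.05, and the methods' t-test 47 higher and 0 lower. The unadjusted share over all probe sets was not counted, so unadjusted counts here and below have no such share beside them. The median difference (POG minus DMSO, log2) was 0.79 over the large subunit and 0.73 over the small subunit, beside 0.11 over all probe sets. Both POG arrays lay above all 3 DMSO arrays for 58 of the 60, where 38.3% of all probe sets did so.

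The shift was seen in the level of each array as well. The median log2 signal of the large-subunit probe sets was 14.85 and 15.105 in the POG arrays and 14.05, 14.035 and 14.22 in the DMSO arrays. That of the small-subunit probe sets was 14.56 and 14.48 in the POG arrays and 13.725, 13.68 and 13.885 in the DMSO arrays. The groups did not overlap for either subunit. The medians over all probe sets did not overlap either, but stood closer together. They were 8.48 and 8.52 in the POG arrays and 8.36, 8.43 and 8.45 in the DMSO arrays. Bright probe sets in general did not share the shift. Of the 524 probe sets at or above the median ribosomal protein signal, 25.8% were called higher in POG and 28.2% lower, with a median difference of 0.03. These 524 include the brighter ribosomal proteins themselves.

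**Figure D2:**
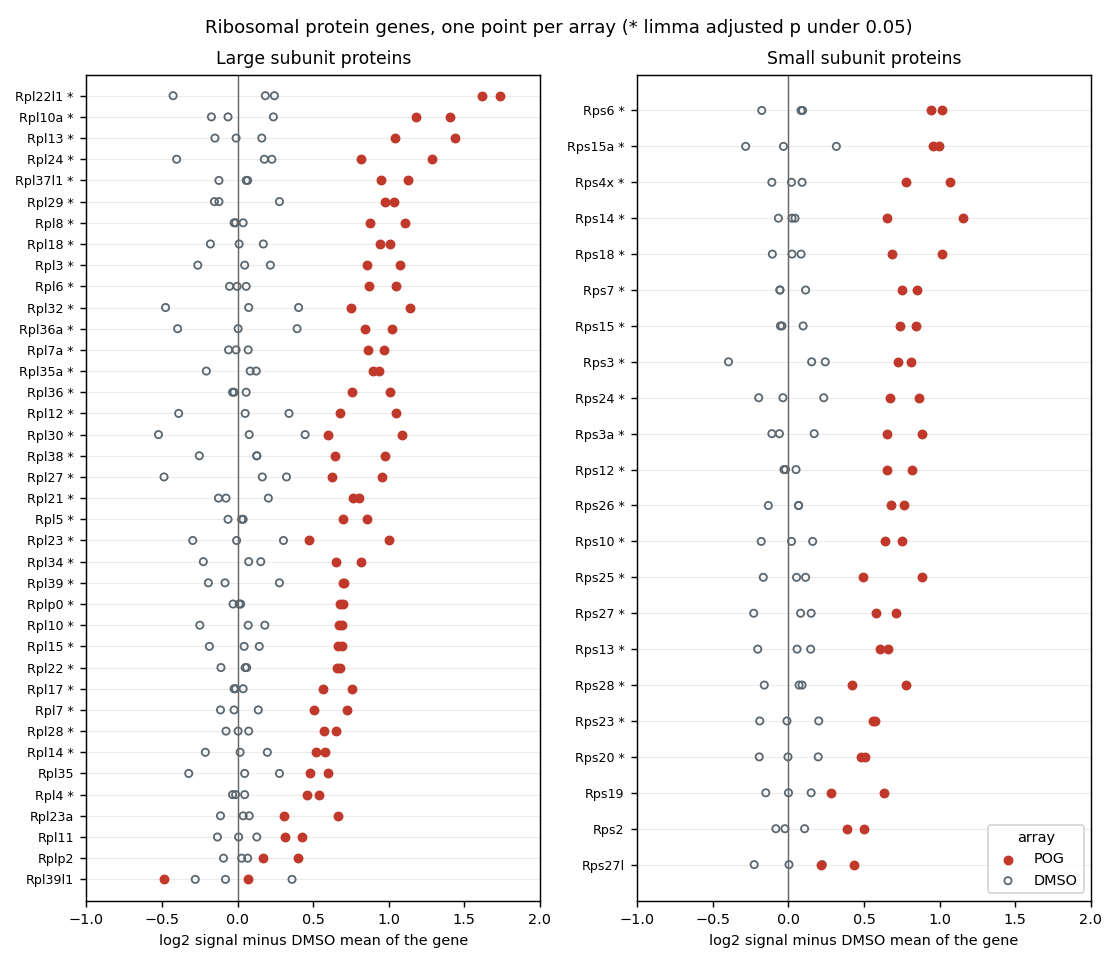
Log2 signal of each ribosomal protein probe set in each array, relative to that probe set's DMSO mean, for the large and small subunit, with POG and DMSO arrays marked apart. The POG arrays lie above all DMSO arrays for 58 of the 60 members.

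The number called rested on both POG arrays. Without POG replicate 2, 25 of the 60 ribosomal proteins were called higher, beside 15.6% of all probe sets, and without POG replicate 1, 35 were, beside 17.8%. The direction moved little: in these same fits 59 and 60 of the 60 differences were positive, with medians of 0.69 and 0.77. DMSO replicate 1 was the lowest DMSO array for 46 of the 60, and for 4364 of all 10141 probe sets. Without this array 45 of the 60 ribosomal proteins were called higher, beside 23.8% of all probe sets, and the median was 0.67.

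Among the large-subunit proteins, the largest difference was that of Rpl22l1, a paralog of Rpl22 that can take its place in the ribosome. Rpl22l1 had log2 signals of 12.22 and 12.10 in the POG arrays, against 10.06, 10.67 and 10.73 in the DMSO arrays. The POG arrays were thus at least 1 log2 unit above each DMSO array, and the difference was 1.67 ± 0.22 (SE), a 3.19-fold higher level (limma adjusted p = 0.000267). Rpl22 itself had 16.16 and 16.14 in the POG arrays, against 15.37, 15.54 and 15.53 in the DMSO arrays, a difference of 0.67 ± 0.17 (adjusted p = 0.00911). The groups were apart for both paralogs, but the call of Rpl22 was lost without either POG array (highest adjusted p = 0.0515). Within arrays, the difference for Rpl22l1 exceeded that for Rpl22 by 1.00 log2 unit.

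Rpl10a, a protein of the mobile L1 stalk beside the tRNA exit site, had 10.52 and 10.75 in the POG arrays, against 9.17, 9.28 and 9.58 in the DMSO arrays (difference 1.29 ± 0.19, limma adjusted p = 0.000488). Rpl13 had 12.83 and 13.23 in the POG arrays, against 11.78, 11.95 and 11.64 in the DMSO arrays (difference 1.24 ± 0.19, adjusted p = 0.00068). Both lay clear of the DMSO range by more than the spread within either group. Rpl8, which lies next to the peptidyl transferase centre, had 14.89 and 15.12 in the POG arrays, against 13.99, 14.05 and 14.00 in the DMSO arrays (difference 0.99, adjusted p = 0.00122). Rpl3, another protein near that centre, had 14.73 and 14.95 in the POG arrays, against 13.61, 13.92 and 14.09 in the DMSO arrays (difference 0.97, adjusted p = 0.0032). Rpl37l1, annotated as a like-gene of Rpl37, had 10.78 and 10.96 in the POG arrays, against 9.71, 9.90 and 9.89 in the DMSO arrays (difference 1.04, adjusted p = 0.00102). Rpl24 and Rpl29 were also higher by at least 2-fold, with differences of 1.05 and 1.01, and Rpl24 lost its call without POG replicate 2.

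Stalk proteins did not all pass. Rplp0, the base of the acidic stalk, had 15.77 and 15.79 in the POG arrays, against 15.06, 15.11 and 15.10 in the DMSO arrays, and was higher by 0.69 ± 0.16 (limma adjusted p = 0.00689). Rplp2, one of the acidic proteins that hang from it, had 16.14 and 16.37 in the POG arrays, against 15.88, 16.04 and 16.00 in the DMSO arrays, a difference of 0.28 ± 0.17 that did not pass (adjusted p = 0.201). Rpl5 and Rpl11 travel together with 5S rRNA and can bind Mdm2 outside the ribosome. Rpl5 had 16.44 and 16.60 in the POG arrays, against 15.77, 15.68 and 15.78 in the DMSO arrays (difference 0.78, adjusted p = 0.00433). Rpl11 had 15.47 and 15.58 in the POG arrays, against 15.02, 15.16 and 15.28 in the DMSO arrays (difference 0.37, adjusted p = 0.101). For both pairs the POG arrays of the weaker member still lay above all DMSO arrays. Rpl23a (0.49) and Rpl35 (0.54) missed the threshold narrowly, at adjusted p of 0.0511 and 0.055. Rpl39l1, annotated as a like-gene of Rpl39, had the only negative difference, -0.21, with 5.73 and 6.29 in the POG arrays and 5.94, 6.14 and 6.58 in the DMSO arrays, and its groups overlapped (adjusted p = 0.496). Its signal was near the lower quartile of all signals, 6.17, where the value may be background.

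Within the small subunit, Rps6 had 16.55 and 16.48 in the POG arrays, against 15.36, 15.63 and 15.62 in the DMSO arrays. The lowest POG array thus stood 0.85 above the highest DMSO array, and the difference was 0.98 ± 0.17 (limma adjusted p = 0.00154). The mRNAs of the S6 kinases were not called: the difference was -0.03 for Rps6kb1 (adjusted p = 0.894) and -0.41 for Rps6kb2 (adjusted p = 0.168). Rps15a, with 14.81 and 14.77 in the POG arrays, against 13.53, 13.78 and 14.13 in the DMSO arrays, differed by 0.98 (adjusted p = 0.0038). Rps4x, the X-linked form of S4, had 17.12 and 17.41 in the POG arrays, against 16.23, 16.36 and 16.43 in the DMSO arrays (difference 0.93, adjusted p = 0.00236). Rps7 and Rps15 were higher by 0.80 and 0.79, with adjusted p of 0.00381 and 0.00399. No called small-subunit protein reached 2-fold, and their folds ran from 1.41 to 1.97.

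Of the 22 small-subunit proteins, 3 did not pass. Rps2, beside the mRNA entry channel, had 17.48 and 17.59 in the POG arrays, against 17.07, 17.01 and 17.20 in the DMSO arrays (difference 0.44, limma adjusted p = 0.0536). Rps19, mutated in many people with Diamond-Blackfan anaemia, had 14.36 and 14.01 in the POG arrays, against 13.88, 13.58 and 13.73 in the DMSO arrays (difference 0.46, adjusted p = 0.0706). In both the groups were apart. Rps27l, the p53-inducible paralog of Rps27, had 10.85 and 11.07 in the POG arrays, against 10.64, 10.41 and 10.86 in the DMSO arrays, and its groups overlapped (difference 0.32, adjusted p = 0.189). Rps27 had 13.25 and 13.38 in the POG arrays, against 12.75, 12.44 and 12.82 in the DMSO arrays, and was higher by 0.65 (adjusted p = 0.0172). The paralogs' differences stood 0.32 apart within arrays. Rps27 lost its call without either POG array and without DMSO replicate 2, although its difference lay between 0.53 and 0.72 in all alternatives.

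Ribosomal genes and their processed copies are alike in sequence, and probes may read more than 1 of them. Values of single ribosomal proteins are uncertain in that respect. The identifiers of some probe sets label them unmapped, among them those of Rpl10a, Rpl13, Rpl37l1, Rpl8 and Rps4x. The called members of both subunits spanned log2 differences of 0.49 to 1.67 with standard errors of 0.16 to 0.28. Across the 60 probe sets the difference had a Spearman correlation of -0.27 and a Pearson correlation of -0.08 with the mean signal. Without Rpl22l1 and Rpl39l1 these were -0.31 and -0.34, as a description of probe sets read on the same 5 arrays. Members with a run of C and T at the start had a median difference of 0.73 (33 proteins) and those without a median of 0.88 (17 proteins).

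**Figure D3:**
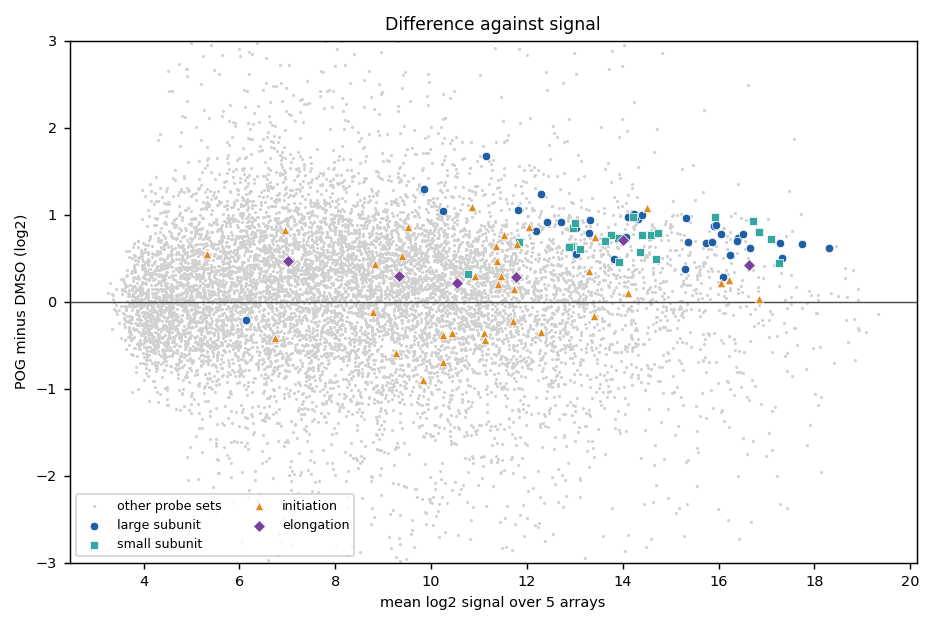
POG minus DMSO difference (log2, y axis, cut at 3 in either direction, leaving 177 probe sets outside it) against mean log2 signal (x axis) for all 10141 probe sets, with ribosomal proteins and translation factors marked. Ribosomal proteins form a band above 0 among probe sets of the same brightness, and factors lie on both sides of 0.

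Of 5 subunit proteins that carry other names, 3 were measured, and 2 were higher. Rack1, a scaffold on the head of the small subunit, had 16.56 and 16.65 in the POG arrays, against 15.80, 15.75 and 15.72 in the DMSO arrays (difference 0.85, limma adjusted p = 0.00245). Rpsa, a small-subunit protein also known as the laminin receptor, was higher by 0.65 (adjusted p = 0.0113), a call lost without POG replicate 1. Fau, whose product is cleaved to yield S30, differed by 0.34 and did not pass (adjusted p = 0.114). Mitochondrial ribosomal proteins, a list added after the values were seen, gave 17 of 49 higher and 0 lower, with a median difference of 0.40, beside 26.7% higher, 19.6% lower and a median of 0.11 over all probe sets. Without adjustment limma gave 23 of these 49 higher and 0 lower at p under 0.05, and the methods' t-test 14 and 0.

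Initiation factors and their regulators, counted together, moved in both directions, with a smaller median difference of 0.25. Of the 35, 10 were higher in POG arrays (28.6%) and 3 were lower (8.57%), beside 26.7% and 19.6% of all probe sets, and 22 did not pass. The share called higher was thus near that of all probe sets. The 3 called lower were the kinase gene Eif2ak3, Eif1b and Eif5a2. Without adjustment, limma gave 11 higher and 5 lower at p under 0.05, and the methods' t-test 8 higher and 7 lower. The arrays of the groups were apart with POG higher for 18 and with POG lower for 9, beside 38.3% and 28.5% of all probe sets, and overlapped for 8. Fewer members were called higher without either POG array, as was so over all probe sets. The median difference was 0.19 without POG replicate 2 and 0.26 without POG replicate 1. Of the 13 members called, Eif3m, Eif3d and Eif2ak3 passed whichever array was left out. Without POG replicate 1 the calls of Eif1ax, Eif1b, Eif2b4, Eif2d, Eif2s3, Eif4b and Eif5a2 were lost. Without POG replicate 2 those of Eif1ax, Eif2b4, Eif2b5, Eif2s3, Eif3e, Eif3l and Eif4b were lost. Eif3l also lost its call without DMSO replicate 3, and Eif2b4 without DMSO replicate 1 or 2. In the complexes described next, the counts are small and are to be read beside the 26.7% higher and 19.6% lower of all probe sets.

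In eIF3, the scaffold on the small subunit, 4 of 9 measured subunits were higher and 0 lower, beside 26.7% and 19.6% of all probe sets. Without adjustment limma gave the same counts of 4 and 0 at p under 0.05, and the methods' t-test 4 higher and 3 lower. Eif3m had 15.06 and 15.25 in the POG arrays, against 14.09, 14.06 and 14.10 in the DMSO arrays (difference 1.07 ± 0.17, limma adjusted p = 0.000687). Eif3e had 12.28 and 12.82 in the POG arrays, against 11.64, 11.82 and 11.61 in the DMSO arrays (difference 0.86, adjusted p = 0.00685). Eif3l had 12.00 and 12.39 in the POG arrays, against 11.43, 11.76 and 11.39 in the DMSO arrays (difference 0.67, adjusted p = 0.0208). These are subunits of the PCI and MPN domain core, but so are Eif3a and Eif3f, which did not pass. Eif3d, which can itself bind the cap in human cells, had 11.97 and 12.01 in the POG arrays, against 11.17, 11.28 and 11.22 in the DMSO arrays (difference 0.77, adjusted p = 0.00422). The large subunits Eif3a and Eif3b had negative differences. Eif3a had 13.33 and 13.26 in the POG arrays, against 13.47, 13.43 and 13.49 in the DMSO arrays, a difference of -0.17 that did not pass (adjusted p = 0.416). Eif3b differed by -0.22 (adjusted p = 0.297), and Eif3j, Eif3f and Eif3i by -0.36, 0.15 and 0.20, none of them past the threshold.

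The eIF2 complex brings the initiator tRNA, and 1 of its 3 measured genes passed. Eif2s3, the γ subunit that binds GTP, had 13.90 and 13.84 in the POG arrays, against 12.86, 13.27 and 13.25 in the DMSO arrays (difference 0.74, limma adjusted p = 0.00987). Its Y-linked copy Eif2s3y differed by 0.27 (adjusted p = 0.237), and Eif2s1, the α subunit whose phosphorylation slows initiation, by 0.35 (adjusted p = 0.107). The X and Y copies are close in sequence and their probes may cross-read. Of 5 eIF2B genes, which exchange the nucleotide on eIF2, 2 were higher. Eif2b5, the catalytic ε subunit, had 9.79 and 10.28 in the POG arrays, against 8.83, 9.31 and 9.39 in the DMSO arrays (difference 0.86, adjusted p = 0.0123). Eif2b4 had 5.83 and 5.46 in the POG arrays, against 4.88, 5.18 and 5.23 in the DMSO arrays (difference 0.55, adjusted p = 0.042), all below the lower quartile of all signals. Eif2b2 differed by -0.12 (adjusted p = 0.561).

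Among kinases that phosphorylate eIF2α, the 2 measured gave opposite signs. Eif2ak3, which encodes the endoplasmic reticulum stress sensor PERK, had 9.43 and 9.13 in the POG arrays, against 10.40, 10.07 and 10.08 in the DMSO arrays. Every POG array was below every DMSO array, and the difference was -0.90 ± 0.19, the most negative of all 101 members (limma adjusted p = 0.00389). Eif2ak2, the double-stranded RNA sensor PKR, had 9.91 and 9.51 in the POG arrays, against 9.04, 9.72 and 8.80 in the DMSO arrays, and its groups overlapped (difference 0.52, adjusted p = 0.132). Ppp1r15b, the constitutive partner of the phosphatase that reverses this mark, fell by 0.59 (adjusted p = 0.0255), a call lost without DMSO replicate 1 or 3 and without either POG array, while its stress-induced relative Ppp1r15a differed by 0.07 (adjusted p = 0.752).

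In the group that handles the cap, 1 of 6 passed. Eif4b, a cofactor of the helicase eIF4A and a substrate of S6 kinase, had 11.53 and 11.50 in the POG arrays, against 9.81, 10.54 and 10.93 in the DMSO arrays (difference 1.09 ± 0.28, limma adjusted p = 0.0115). Its DMSO arrays were spread over more than 1 log2 unit, and the groups did not overlap. Eif4e, the cap-binding protein, had 10.01 and 10.42 in the POG arrays, against 10.63, 10.67 and 10.41 in the DMSO arrays, and the groups overlapped (difference -0.35, adjusted p = 0.151). Eif4a1 differed by 0.21 (adjusted p = 0.339). Eif4ebp2, a repressor of eIF4E controlled by mTOR, differed by 0.43 (adjusted p = 0.163). Eif4g2, which drives cap-independent initiation, was the flattest member, with 16.90 and 16.82 in the POG arrays and 16.86, 16.84 and 16.78 in the DMSO arrays (difference 0.03, adjusted p = 0.88), and its sign turned after median centring.

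Of the other initiation factors, 2 were higher and 2 lower among 10. Eif1ax, which works in scanning, had 11.72 and 11.77 in the POG arrays, against 11.16, 10.97 and 11.17 in the DMSO arrays (difference 0.65, limma adjusted p = 0.0115). The near-identical Eif1a had 14.11 and 14.24 in the POG arrays, against 14.07, 14.08 and 14.08 in the DMSO arrays (difference 0.10, adjusted p = 0.645). Probes for such close sequences may cross-read. Eif2d, which delivers tRNA without GTP, had 7.61 and 7.27 in the POG arrays, against 6.57, 6.43 and 6.84 in the DMSO arrays (difference 0.83, adjusted p = 0.00721). Eif1b, a paralog of the start codon selector eIF1, had 9.61 and 10.05 in the POG arrays, against 10.66, 10.45 and 10.46 in the DMSO arrays, and was lower (difference -0.69, adjusted p = 0.0149). Eif5a2 had 8.75 and 9.08 in the POG arrays, against 9.62, 9.45 and 9.46 in the DMSO arrays, and was also lower (difference -0.59, adjusted p = 0.0222). Its widely expressed paralog Eif5a, a hypusinated factor that helps ribosomes past difficult peptide bonds, had 16.48 and 16.27 in the POG arrays, against 15.98, 16.16 and 16.23 in the DMSO arrays (difference 0.25, adjusted p = 0.26). Within arrays the difference for Eif5a exceeded that for Eif5a2 by 0.85. Eif6, which keeps free large subunits from joining small ones, differed by -0.35 (adjusted p = 0.194). Eif5b, the GTPase of subunit joining, differed by -0.44 (adjusted p = 0.081).

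**Figure D4:**
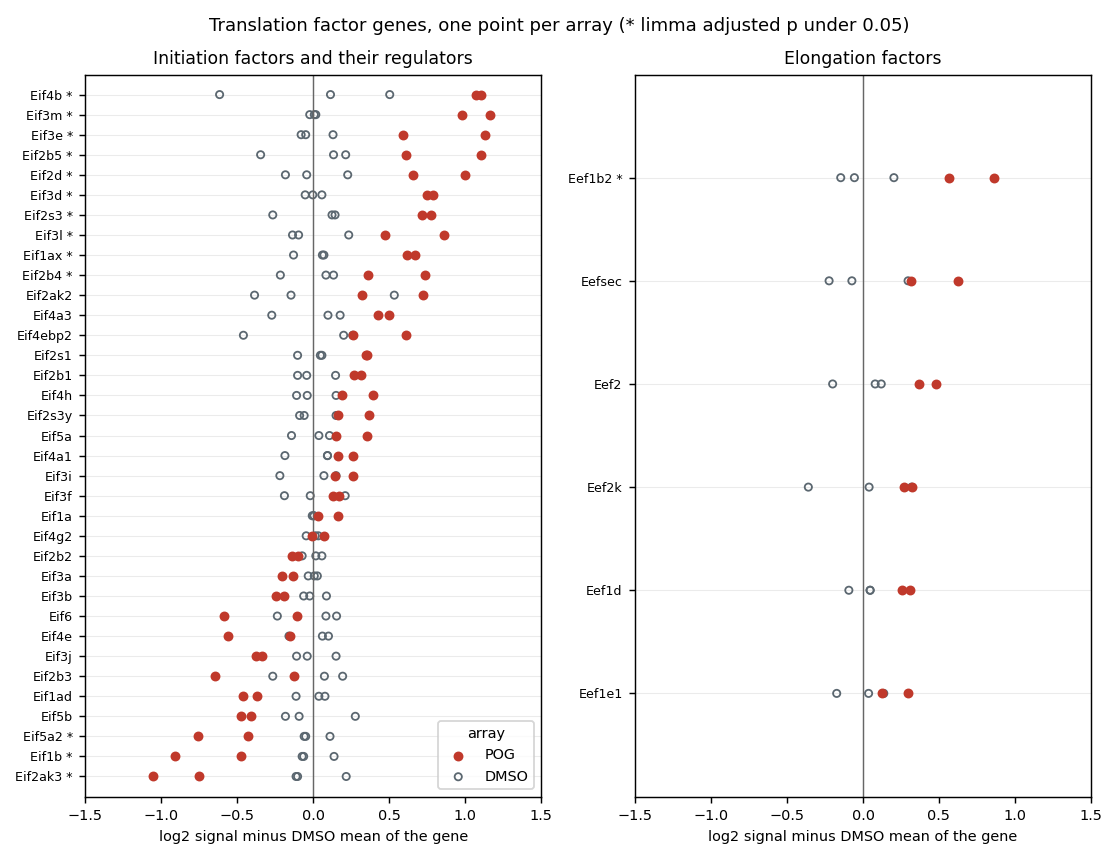
Log2 signal of each initiation and elongation member in each array, relative to its DMSO mean, with POG and DMSO arrays marked apart. Members run from Eif4b and Eif3m, with differences of 1.09 and 1.07, down to Eif2ak3 at -0.90.

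Paralog and subunit pairs were compared within each array because both members then share that array's scaling. In all 7 pairs examined the within-array difference was apart between the POG and DMSO arrays: Rpl22l1 and Rpl22, Rps27 and Rps27l, Eif5a and Eif5a2, Eif2s3 and Eif2s3y, Eif1ax and Eif1a, Rpl5 and Rpl11, and Rplp0 and Rplp2. Separated groups are common in these data: among single probe sets, the POG arrays lay above all DMSO arrays for 38.3% and below all for 28.5%. The pairs were picked after the values were seen, and a two-sided exact permutation test on 2 against 3 arrays gave p = 0.2 for each, the smallest it can give.

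**Figure D5:**
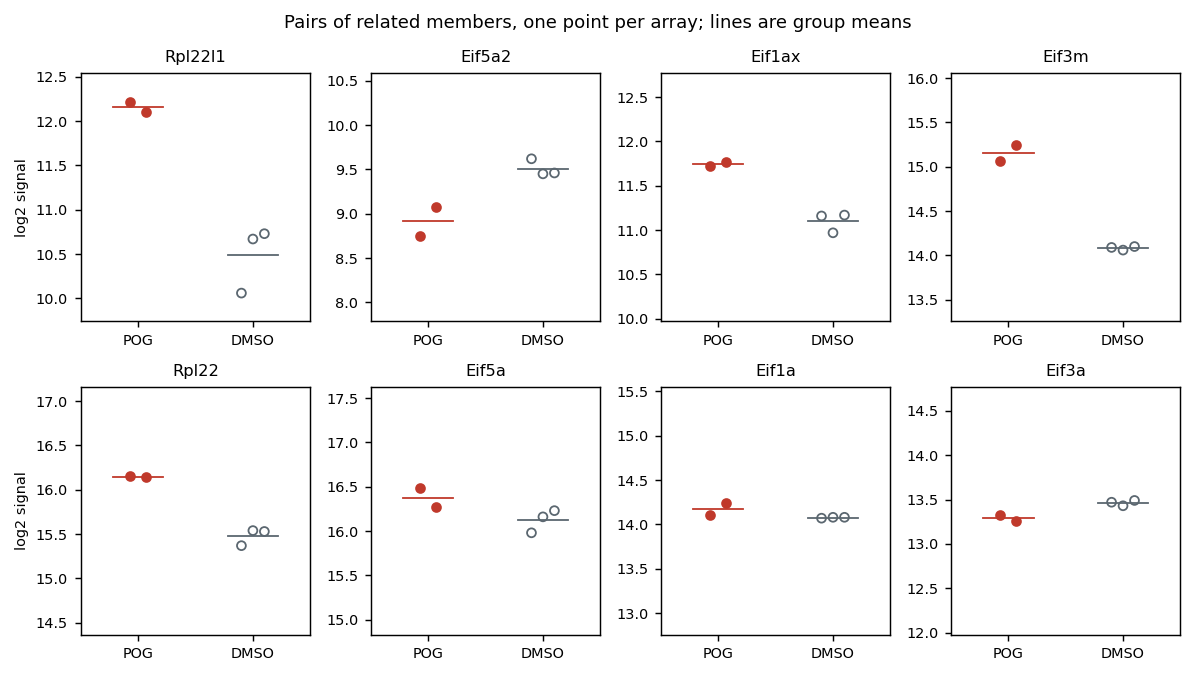
Log2 signal of 8 members in each POG (filled, left) and DMSO (open, right) array, each panel with its own y axis of equal span and lines at the group means. The POG mean lies 1.67 above the DMSO mean for Rpl22l1 and 0.67 above for Rpl22, 0.59 below for Eif5a2 and 0.25 above for Eif5a, 0.65 above for Eif1ax and 0.10 above for Eif1a, and 1.07 above for Eif3m and 0.17 below for Eif3a.

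All 6 elongation members had positive differences, as did 5705 of all 10141 probe sets, and 1 passed (16.7%, beside 26.7% of all probe sets), with a median of 0.36. Eef1b2, an exchange factor subunit that recharges eEF1A with GTP, had 14.28 and 14.58 in the POG arrays, against 13.57, 13.66 and 13.92 in the DMSO arrays (difference 0.71 ± 0.19, limma adjusted p = 0.0121), and its call was lost without POG replicate 2. Eef2, the translocase, had 16.95 and 16.84 in the POG arrays, against 16.27, 16.55 and 16.59 in the DMSO arrays. Its groups were apart, but the difference of 0.42 did not pass (adjusted p = 0.0749). Eef1d, another exchange subunit, differed by 0.28 (adjusted p = 0.185), and Eef2k, the kinase that restrains eEF2, by 0.29 (adjusted p = 0.279). Eefsec, which inserts selenocysteine, differed by 0.47 (adjusted p = 0.0847), and Eef1e1, a scaffold of the tRNA synthetase complex rather than an elongation factor, by 0.21 (adjusted p = 0.347). Without adjustment, limma gave 3 of the 6 higher at p under 0.05 and 0 lower, and the methods' t-test 2 higher and 0 lower. Over initiation and elongation members together, the median difference was 0.25 for the 8 with a run of C and T at the start and 0.26 for the 30 without.

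Factors that work after or around these steps were mixed. Of 8 measured genes for release, recycling and rescue, 1 was higher (12.5%) and 3 were lower (37.5%), beside 26.7% and 19.6% of all probe sets. Rnf10, a ubiquitin ligase that marks small-subunit proteins of stalled ribosomes, had 15.47 and 15.40 in the POG arrays, against 16.39, 16.49 and 16.24 in the DMSO arrays (difference -0.94, limma adjusted p = 0.00173). Pelo, which splits stalled ribosomes, had 10.26 and 10.51 in the POG arrays, against 11.24, 11.15 and 11.10 in the DMSO arrays (difference -0.78, adjusted p = 0.00507). Zfp598, the ligase that senses collided ribosomes, fell by 0.74 (adjusted p = 0.0404), and Ltn1, which tags nascent chains on split large subunits, was higher by 0.63 (adjusted p = 0.0263). Of 13 measured cofactors of the cap, the poly(A) tail and initiation, 3 were higher and 3 lower (23.1% each), near the shares of all probe sets. Btf3, part of the nascent polypeptide-associated complex, rose by 0.70 (adjusted p = 0.0146), and the poly(A)-binding protein gene Pabpc4 by 0.62 (adjusted p = 0.0167). Denr, a partner in reinitiation and recycling, had 10.05 and 10.02 in the POG arrays, against 10.77, 10.96 and 10.89 in the DMSO arrays (difference -0.84, adjusted p = 0.0029). Of 15 genes for aminoacyl-tRNA synthetases and their scaffolds, Farsb (0.69) and Rars1 (0.65) were higher, with adjusted p of 0.00901 and 0.0172, and 0 were lower. In these 3 lists, only Rnf10 and Denr of the genes called kept their call whichever array was left out. Without adjustment limma gave 3 of these 15 higher at p under 0.05 and 0 lower, and the methods' t-test 5 and 0.

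Several marker genes moved with the treatment by more than any member did. The marker lists are small, and their counts are to be read beside the 26.7% higher and 19.6% lower of all probe sets. Of 7 measured smooth muscle and pericyte markers all 7 were lower, with the mean log2 signal of the list at 10.52 to 10.68 in the POG arrays and 14.88 to 14.93 in the DMSO arrays. Of 7 tendon and fibroblast markers 3 were higher, Dcn (8.24), Fmod (6.57) and Thbs4 (2.675), and 0 were lower. Without adjustment 1 was lower at a limma p under 0.05 and 1 by the methods' t-test. The other 4 had negative differences, Col3a1 (-0.39), Tnc (-0.35), Scx (-0.31) and Col1a1 (-0.14), and the list median was -0.14. The list means, 15.30 to 15.43 in the POG arrays and 13.01 to 13.08 in the DMSO arrays, thus rest on the 3 called genes. The tendon regulator Scx was at 5.99 and 5.55 in the POG arrays and 6.04, 6.09 and 6.11 in the DMSO arrays, under the lower quartile of all signals. Proliferation genes were higher in 3 of 4, with means of 9.84 to 9.89 in the POG arrays and 8.36 to 8.53 in the DMSO arrays. Mki67 differed by 2.64 and Pcna by 0.04. The 4 leukocyte markers were higher from low signals, with means of 5.99 to 6.44 in the POG arrays and 4.35 to 4.58 in the DMSO arrays. The 2 endothelial markers went opposite ways: Kdr was higher by 1.85, and Erg differed by -0.57 and did not pass (limma adjusted p = 0.0763). Their mean signals over all arrays, 5.208 for Kdr and 4.418 for Erg, lay under the lower quartile of all signals. The part of these changes in the ribosomal protein result was not tested. In such bulk RNA, a different share of cells of a type and a different amount of RNA per cell cannot be told apart.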

How the data were processed

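The authors extracted total RNA with Trizol, hybridised biotinylated cDNA to an Affymetrix rat transcriptome array and deposited log2 signals per probe set made by RMA (robust multi-array average: background correction, normalization across arrays, then 1 value per probe set). The RMA version and the rule by which probe sets were chosen for deposit are not given in the sources used here, and no detection calls were used here. Both deposited tables carried identical log2 values (largest difference 0). Groups came from the labels. POG minus DMSO was tested in limma 3.58.1 (R 4.3.3, two-sided moderated test) on 2 against 3 arrays, the p-values of all 10141 probe sets being adjusted together (Benjamini-Hochberg) and called at 0.05. The number of arrays limits the precision. Genes came from the platform annotation, which names 7240 probe sets, and all 101 member gene IDs are in the current RefSeq table. The array name in the labels and that of the annotation were not reconciled.

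Members and lists were chosen with earlier results of these data known. Genes were named by rule (in each class up to 5 higher and 5 lower with the smallest p and non-overlapping groups, up to 3 with the largest p, and a panel of 33 genes, of which 24 were measured; in other lists up to 3 with the smallest p). Further genes in the text were picked with their values in view. Start windows came from RefSeq (GRCr8). Alternatives covered scaling, a brightness filter, variance settings, array weights, the replicate block, each array left out and the methods' t-test, at their own thresholds (p under 0.05 and a fold over 1.5) and after adjustment.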

Additional observations from a re-analysis of the deposited data

How the results depend on the processing

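The direction of the 45 genes named by rule held in every alternative, except for Eif4g2 (-0.0533 after median centring, and -0.00667 to 0.0733 with 1 array left out, the lowest without POG replicate 1) and Rpl39l1 (-0.49 to 0.07 with 1 array left out, the highest without POG replicate 1). Of the 24 past the threshold, 12 stayed past it in every alternative. With only the 5071 brighter probe sets, 1560 of these were called higher, and 2 of the 5 elongation members among them. Quantile normalization and the trend and robust settings also gave 2 elongation members, beside 2330 and 2824 of all probe sets higher. The methods' t-test, once adjusted over all probe sets, called 1064 of all probe sets higher and 1014 lower, with 17 large-subunit, 7 small-subunit, 3 initiation and 0 elongation members higher and 0 initiation members lower. At the methods' own thresholds it called 25 large-subunit and 16 small-subunit members higher, beside 1868 of all probe sets. Median centring gave 2291 of all probe sets higher and 2307 lower, against 2707 and 1987 without it, and 31 large-subunit and 18 small-subunit members higher. Leaving out 1 array at a time gave 1586 to 2480 of all probe sets higher and 1314 to 1931 lower. In these fits 16 to 33 large-subunit, 9 to 19 small-subunit, 3 to 10 initiation and 0 to 2 elongation members were higher, and 1 to 3 initiation members were lower. The low ends fell without POG replicate 2, except for initiation members lower, where it fell without POG replicate 1. The 2 elongation calls came without DMSO replicate 2. With the replicate block, 33 large-subunit, 19 small-subunit, 9 initiation and 1 elongation member were higher, and 3 initiation members were lower. Over all probe sets the block gave 2462 higher and 1731 lower. In this fit 51 of the 52 ribosomal protein calls were shared. Only the DMSO group has a replicate 3, so the block takes up that array and the difference comes from replicates 1 and 2. It therefore equals the difference without DMSO replicate 3 (1.795 for Rpl22l1 in both). Whether the numbers pair the arrays could not be told. Deviations of same-numbered arrays correlated at 0.0042 and 0.0052 over all probe sets, and at 0.126 and -0.0697 over the members. The deviations of the 2 POG arrays mirror each other, and DMSO replicate 3 has no partner. The cause of these changes was not tested. With 2 POG arrays, a lone array in these fits is assumed to vary like the other group, and signals near 6.17 may be background.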
